A study of Homo sapiens with 10 samples.

Results

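Anillin, citron kinase, survivin, centralspindlin and their partners build the structure through which dividing cells are finally cut apart, and the mRNAs of these proteins were followed here through the extracellular vesicles (EVs) of PC3 cells, a human prostate cancer cell line. The 10 genes were taken by symbol: CIT and ANLN of the contractile ring, INCENP, BIRC5, CDCA8 and AURKB of the chromosomal passenger complex, and RACGAP1, ECT2, PRC1 and CEP55 of centralspindlin and its partners. All 10 were found among the 94946 entries of the count table, and all 10 passed the filter on low counts in every comparison. The lowest count of any of them was 31, for PRC1 in replicate 2 of EV 100K. The study pelleted EVs from PC3 cultures at 3 spins, labelled 2.8K, 10K and 100K (the unit is not stated), and sequenced 3 libraries of total RNA per spin and 1 library of PC3 cells. All 4 groups are this cell line grown in DMEM with fetal bovine serum, and no label gives a genotype or a treatment. The labels do not tell whether the 3 sets are independent cultures, and the p-values therefore measure the spread between these libraries, which may be technical.

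When a cell divides, the chromosomal passenger complex moves with the chromosomes and then to the spindle midzone, where its kinase Aurora B acts while INCENP, survivin and borealin place it. Centralspindlin, of which RACGAP1 is the GTPase-activating subunit, bundles midzone microtubules with PRC1 and brings the exchange factor ECT2 to the cortex, where RhoA drives a ring of actin and myosin organised by anillin and citron kinase. The ring closes onto the midbody, where CEP55 recruits the machinery of membrane scission, and midbody remnants can be released from cells. The genes are known to be transcribed mainly in the G2 and M phases through promoter elements called CHR and CCAAT box.

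Promoters were set side by side for the members whose mRNAs moved together across the pellets, CIT with ANLN (r = 0.993 over the 9 EV libraries) and PRC1 with CEP55 (r = 0.905). They are RefSeq sequences of GRCh38.p14 from 250 bases before to 50 bases after the gene start, 5′ to 3′ on the gene's strand, and capitals mark every TTTGAA (the CHR core) and CCAAT on either strand. The windows are chr12:119877271-119877570 on the minus strand for CIT, chr7:36389612-36389911 on the plus strand for ANLN, chr15:90994486-90994785 on the minus strand for PRC1 and chr10:93496362-93496661 on the plus strand for CEP55.
CIT: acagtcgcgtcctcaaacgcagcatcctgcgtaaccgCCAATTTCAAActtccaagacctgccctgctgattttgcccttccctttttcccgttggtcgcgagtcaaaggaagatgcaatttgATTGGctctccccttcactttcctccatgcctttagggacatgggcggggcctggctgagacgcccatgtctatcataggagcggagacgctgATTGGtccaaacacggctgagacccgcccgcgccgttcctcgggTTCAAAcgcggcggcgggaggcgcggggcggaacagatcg
ANLN: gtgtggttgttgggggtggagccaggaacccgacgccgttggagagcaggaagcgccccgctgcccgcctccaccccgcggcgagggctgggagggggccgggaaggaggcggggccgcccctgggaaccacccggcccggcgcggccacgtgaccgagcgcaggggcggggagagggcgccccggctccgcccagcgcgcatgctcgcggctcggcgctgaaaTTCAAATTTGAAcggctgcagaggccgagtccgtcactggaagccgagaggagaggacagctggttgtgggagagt
PRC1: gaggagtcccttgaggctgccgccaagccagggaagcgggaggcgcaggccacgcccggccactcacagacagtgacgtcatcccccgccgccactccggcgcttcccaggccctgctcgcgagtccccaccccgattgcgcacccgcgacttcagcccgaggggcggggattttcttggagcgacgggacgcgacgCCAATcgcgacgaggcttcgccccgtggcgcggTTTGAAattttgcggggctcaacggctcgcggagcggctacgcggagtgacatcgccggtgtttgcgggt
CEP55: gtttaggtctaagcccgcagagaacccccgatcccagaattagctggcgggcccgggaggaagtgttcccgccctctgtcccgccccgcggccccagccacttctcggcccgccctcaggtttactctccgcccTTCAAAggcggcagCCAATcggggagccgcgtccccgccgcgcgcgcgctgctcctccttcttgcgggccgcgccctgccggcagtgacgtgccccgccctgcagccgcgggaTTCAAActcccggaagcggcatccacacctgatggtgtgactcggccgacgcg
With the start base as position 1, in CIT a CCAAT at -213 runs straight into a reverse TTTGAA, and another reverse TTTGAA lies at 11. ANLN has 2 abutting TTTGAA matches on opposite strands, at -26 and -20, and no CCAAT. PRC1 has TTTGAA at -20 and CCAAT at -53, and CEP55 has reverse TTTGAA matches at -116 and -3 around a CCAAT at -102. Of the 10 members, 8 matched a RefSeq promoter, all but BIRC5 and RACGAP1. TTTGAA was in 7 of these 8, against 15.2% of 34796 promoters of the same length, and CCAAT was in 7 of 8, against 34.6%. Both kinds were in 6 of 8, against 6.40%, and the variant TTCGAA was in none of the 8, against 1.45%. In CDCA8 a TTTGAA and a reverse CCAAT overlap by 1 base. AURKB was the member without TTTGAA in its window and ANLN the member without CCAAT. The AURKB window, 8210176 to 8210475 on the minus strand, lies wholly inside the gene as GENCODE places it, 8204733 to 8210600. Bases before that GENCODE start were not searched, so the missing TTTGAA does not describe them. The PRC1 window also lies inside its GENCODE gene, which ends at 90995629. All matches describe the letters in the window and no binding was measured.

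Levels are given as CPM, counts relative to a library total of 1e+06 and scaled by TMM factors over all 10 libraries, and as CPM per kilobase of exonic length where genes are compared with each other. Total counts ran from 5424964 to 28735081 per library. Mitochondrially encoded genes took 12.9%, 4.92% and 4.81% of the counts in the 3 EV 2.8K libraries, 0.826% to 1.04% in EV 10K, 0.00544% to 0.00802% in EV 100K and 2.88% in the cell library. Summed PC3 and epithelial markers lay at 3333 to 4042 CPM in EV 2.8K, 2566 to 3190 CPM in EV 10K, 1735 to 1759 CPM in EV 100K and 3042 CPM in the cell library. The luminal markers KLK3, KLK2, ACPP and FOLH1 were at 0 in every library, where a count of 0 allows up to 3 counts. In EV 100K against EV 2.8K, 4 of 7 PC3 and epithelial markers tested were lower, beside 13.8% of all genes. Among them were VIM (log2 fold change -2.38), KRT18 (-2.09) and KRT8 (-1.49), while KRT19 (-0.48), ITGB1 (-0.14) and EPCAM (-0.99) did not pass. Of 3 luminal markers tested, 1 was higher, the prostate lineage factor HOXB13 (0.76), beside 12% of all genes. Leukocyte markers summed to at most 6.93 CPM and blood and serum markers to at most 3.91 CPM in any library, and DCN, LUM and FAP, fibroblast markers, were at 0 throughout, with a summed fibroblast level of 5.93 to 43.5 CPM. With mitochondrially encoded genes left out of library sizes, scaling and test, the counts of members called higher and lower were as reported in all 3 comparisons of pellets (2 and 0, 1 and 5, 0 and 4). The part of these markers in the results was not tested. Fewer vesicles that carry an mRNA and less of that mRNA per vesicle cannot be told apart in pooled pellets.

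The members did not move as a block. Against EV 2.8K, the EV 10K pellet held more CIT and ANLN mRNA, and the EV 100K pellet held much less of both and also less PRC1, CEP55 and CDCA8, while BIRC5, the survivin mRNA, was higher in EV 100K. A gene counts as higher or lower where edgeR's quasi-likelihood test on all 15525 genes gave a Benjamini-Hochberg adjusted p below 0.05. In EV 10K against EV 2.8K, 2 of 10 members were higher and 0 lower, with 4.15% of all genes higher and 2.22% lower (6.38% in either direction). For EV 100K against EV 2.8K the counts were 1 higher and 5 lower, with 12% of all genes higher and 13.8% lower (25.8% in either direction). For EV 100K against EV 10K they were 0 higher and 4 lower, with 3.7% of all genes higher and 7.23% lower (10.9% in either direction). At an unadjusted p below 0.05 in EV 10K against EV 2.8K, edgeR had 3 higher members (CIT, ANLN and BIRC5) and 2 lower (CDCA8 and CEP55). After adjustment, DESeq2 called the same 3 higher and 0 lower there. In EV 100K against EV 10K, edgeR had 1 higher (BIRC5) and 5 lower at an unadjusted p below 0.05, and DESeq2 called 1 and 4 after adjustment. A joint test found a difference between pellets for 7 of 10 members, against 23.3% of all genes, and AURKB, RACGAP1 and ECT2 did not pass, with adjusted p = 0.359, 0.349 and 0.370 in edgeR. In the EV 10K against EV 2.8K comparison the count of higher members was 0 without replicate 1 of EV 10K or without replicate 2 of EV 2.8K, 1 without replicate 3 of EV 2.8K and 4 without replicate 1 of EV 2.8K.

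**Figure D1:**
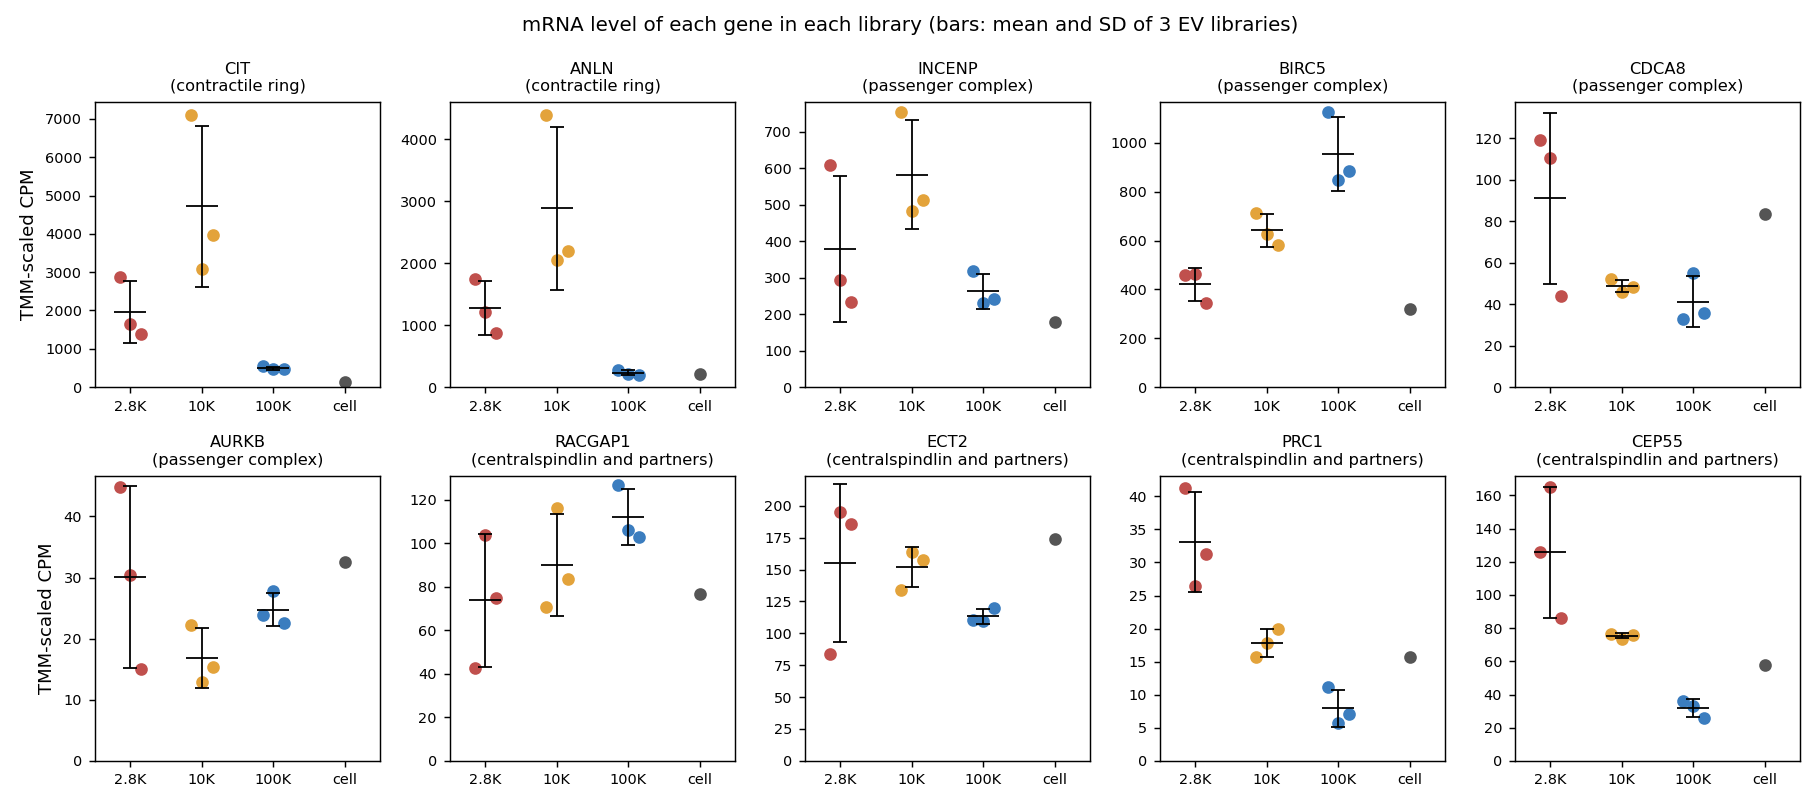
TMM-scaled CPM (vertical axes, linear from 0) of the 10 mRNAs in each library, with points for the EV 2.8K, EV 10K, EV 100K and cell libraries and bars for the mean and SD of 3 EV libraries. CIT and ANLN peak in EV 10K and BIRC5 is highest in EV 100K, while PRC1 and CEP55 are lowest in EV 100K, and the cell group is a single library.

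CIT and ANLN, the contractile ring genes, had the highest levels per kilobase of the members in EV 2.8K and EV 10K and the largest fold changes in EV 10K against EV 2.8K and in EV 100K against EV 10K. CIT (ENSG00000122966.15, chr12:119685790-119877291 on the minus strand, GRCh38) encodes citron kinase, which organises the midbody ring. It had 2882, 1636 and 1375 CPM in EV 2.8K, 7099, 3088 and 3976 CPM in EV 10K, 543, 461 and 473 CPM in EV 100K and 142.9 CPM in the cell library. No EV library fell to the level of the cell library, and the 3 pellets did not overlap. CIT was higher in EV 10K than in EV 2.8K, with a log2 fold change of 1.25 (± 0.29 SE, adjusted p = 0.0160 in edgeR). Its log2 fold change was -2.02 (± 0.30 SE, adjusted p = 8.88e-05 in edgeR) in EV 100K against EV 2.8K and -3.27 (± 0.32 SE, adjusted p = 9.70e-06 in edgeR) in EV 100K against EV 10K. In EV 100K against EV 10K, CIT was at rank 24 of 15525 genes by p. Among 13535 protein-coding genes, CIT ranked 26 to 37 by CPM in the EV 2.8K libraries, 5 to 13 in EV 10K, 250 to 269 in EV 100K and 1181 in the cell library.

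ANLN (ENSG00000011426.10, chr7:36389806-36453791 on the plus strand) encodes anillin, a scaffold that binds actin, myosin, septins and RhoA. It had 1743, 1214 and 875 CPM in EV 2.8K, 4391, 2053 and 2201 CPM in EV 10K, 281, 219 and 198 CPM in EV 100K and 204 CPM in the cell library. As for CIT, the pellets did not overlap, but EV 100K lay around the cell level, 1 library below it and 2 above. ANLN was higher in EV 10K than in EV 2.8K by a log2 fold change of 1.16 (± 0.29 SE, adjusted p = 0.0221 in edgeR). Its log2 fold change was -2.47 (± 0.30 SE, adjusted p = 1.11e-05 in edgeR) in EV 100K against EV 2.8K. In EV 100K against EV 10K it was -3.64 (± 0.32 SE, adjusted p = 3.14e-06 in edgeR), at rank 13 of 15525 genes by p. Replicate 1 was the highest library of each pellet for both genes. Without replicate 1 of EV 10K, EV 10K against EV 2.8K gave 0.84 for CIT and 0.72 for ANLN, with edgeR adjusted p = 0.0984 and 0.146. The call was also lost without replicate 2 of EV 2.8K, with adjusted p = 0.0660 for CIT and 0.0722 for ANLN, and, for ANLN, without replicate 3 of EV 2.8K (0.0589). Over all 17 alternatives the adjusted p of this comparison ran from 1.69e-08 to 0.0984 for CIT and from 7.35e-07 to 0.146 for ANLN. Both EV 100K comparisons passed for both genes in all 17 alternatives.

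The 4 passenger complex mRNAs did not share a course. INCENP fell in EV 100K against EV 10K, BIRC5 rose in EV 100K, CDCA8 fell in EV 100K against EV 2.8K, and AURKB passed no comparison. INCENP (ENSG00000149503.12, chr11:62123973-62153163 on the plus strand) encodes the scaffold that holds the complex together and activates Aurora B. It had 608, 295 and 233 CPM in EV 2.8K, 753, 482 and 511 CPM in EV 10K, 318, 229 and 241 CPM in EV 100K and 178 CPM in the cell library. Every EV library was above the cell library, EV 100K was below EV 10K in every library, and replicate 1 of EV 2.8K stood within the EV 10K range. As for CIT and ANLN, replicate 1 was the highest library of each pellet. In EV 100K against EV 10K its log2 fold change was -1.16 (± 0.30 SE, adjusted p = 0.0164 in edgeR), a call that was lost without replicate 2 of EV 100K, replicate 3 of EV 100K or replicate 1 of EV 10K (adjusted p = 0.0862, 0.0823 and 0.0926). The adjusted p ran from 1.35e-05 to 0.0926 over 17 alternatives. EV 10K against EV 2.8K gave 0.61 (± 0.29 SE, adjusted p = 0.247 in edgeR), and without replicate 1 of EV 2.8K it gave 1.13 (adjusted p = 0.00285; range 0.00285 to 0.598). That library also had the highest mitochondrial share, 12.9%. EV 100K against EV 2.8K gave -0.55 (± 0.29 SE, adjusted p = 0.199 in edgeR).

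BIRC5 (ENSG00000089685.14, chr17:78214186-78225636 on the plus strand) encodes survivin, the subunit that reads the phosphorylated histone mark at centromeres. It had 459, 461 and 343 CPM in EV 2.8K, 714, 626 and 583 CPM in EV 10K, 1127, 849 and 883 CPM in EV 100K and 320.1 CPM in the cell library. BIRC5 was the only member whose level was higher at each higher spin without overlap, and every EV library was above the cell library. It was higher in EV 100K than in EV 2.8K by a log2 fold change of 1.16 (± 0.19 SE, adjusted p = 0.000182 in edgeR), which passed in all 17 alternatives. The intermediate steps, 0.59 (SE 0.19) in EV 10K against EV 2.8K and 0.56 (SE 0.19) in EV 100K against EV 10K, did not pass, with edgeR adjusted p = 0.0753 and 0.0680. Over 17 alternatives these ran from 0.0219 to 0.229 and from 0.00860 to 0.326. BIRC5 ranked 237 to 349 of 13535 protein-coding genes by CPM in EV 2.8K, 167 to 212 in EV 10K, 100 to 118 in EV 100K and 328 in the cell library.

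CDCA8 (ENSG00000134690.10, chr1:37692418-37709719 on the plus strand) encodes borealin, which joins survivin and INCENP in the localisation module. It had 119, 111 and 43.9 CPM in EV 2.8K, 52.2, 46.1 and 48.2 CPM in EV 10K, 32.7, 55.3 and 35.6 CPM in EV 100K and 83.6 CPM in the cell library. The EV 2.8K libraries were split, with replicate 3 among the EV 10K and EV 100K values, and the pellets overlapped. EV 100K against EV 2.8K gave -1.17 (± 0.34 SE, adjusted p = 0.0165 in edgeR). This call was lost without replicate 1 (0.0817) or replicate 3 (0.0675) of EV 100K, without replicate 1 (0.0523) or replicate 2 (0.0909) of EV 2.8K, and in the fit on the 6 libraries compared (adjusted p = 0.0573). The range over 17 alternatives was 0.00119 to 0.0909. EV 10K against EV 2.8K gave -0.91 (± 0.34 SE, adjusted p = 0.126 in edgeR), and -1.20 (adjusted p = 0.0172, range 0.0172 to 0.313) without replicate 3 of EV 2.8K. AURKB (ENSG00000178999.12, chr17:8204733-8210600 on the minus strand) encodes Aurora B, the kinase of the complex. It had 44.9, 30.5 and 15.1 CPM in EV 2.8K, 22.2, 12.9 and 15.3 CPM in EV 10K, 23.9, 27.7 and 22.6 CPM in EV 100K and 32.6 CPM in the cell library. Its log2 fold changes were -0.85 (SE 0.44) in EV 10K against EV 2.8K, -0.30 (SE 0.43) in EV 100K against EV 2.8K and 0.55 (SE 0.44) in EV 100K against EV 10K. With edgeR adjusted p = 0.286, 0.699 and 0.547, none of these passed, and the SE leaves room for sizeable differences.

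Of the midzone and midbody genes, PRC1 and CEP55 fell and RACGAP1 and ECT2 passed no comparison. RACGAP1 (ENSG00000161800.12, chr12:49976923-50033136 on the minus strand) had 42.6, 104 and 74.9 CPM in EV 2.8K, 70.5, 116 and 83.7 CPM in EV 10K, 127, 106 and 103 CPM in EV 100K and 76.8 CPM in the cell library. The pellets overlapped, and its EV 100K libraries were all above the cell level. EV 100K against EV 2.8K gave 0.58 (± 0.29 SE, adjusted p = 0.168 in edgeR), and 0.97 (adjusted p = 0.0318, range 0.0318 to 0.425 over 17 alternatives) without replicate 2 of EV 2.8K. ECT2 (ENSG00000114346.13, chr3:172750682-172821474 on the plus strand), the RhoA exchange factor, had 83.9, 195 and 186 CPM in EV 2.8K, 134, 164 and 158 CPM in EV 10K, 110.1, 109.95 and 120.1 CPM in EV 100K and 174 CPM in the cell library. Replicate 1 of EV 2.8K was the lowest of all its libraries. EV 100K against EV 2.8K gave -0.47 (± 0.27 SE, adjusted p = 0.221 in edgeR), and -0.77 (adjusted p = 0.00509, range 0.00509 to 0.673) without that library.

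PRC1 (ENSG00000198901.13, chr15:90966038-90995629 on the minus strand) encodes the microtubule bundler of the midzone. It had 41.3, 26.5 and 31.3 CPM in EV 2.8K, 15.8, 17.8 and 20.0 CPM in EV 10K, 11.1, 5.69 and 7.05 CPM in EV 100K and 15.8 CPM in the cell library. The pellets did not overlap, and the level was lower at each higher spin. PRC1 fell in EV 100K against EV 2.8K, with a log2 fold change of -2.07 (± 0.45 SE, adjusted p = 0.00207 in edgeR), and this passed in all 17 alternatives. EV 10K against EV 2.8K gave -0.90 (± 0.43 SE, adjusted p = 0.249 in edgeR) and EV 100K against EV 10K gave -1.17 (± 0.44 SE, adjusted p = 0.109 in edgeR). It shares 3181 exonic bases, 57.6% of its exonic length, with AC068831.7 on the same strand, and how shared reads were counted is not stated, so its level is uncertain. AC068831.7 had no counts in EV 2.8K or EV 10K, 3, 9 and 0 in EV 100K and 84 in the cell library. CEP55 (ENSG00000138180.15, chr10:93496632-93529092 on the plus strand) encodes the midbody protein that recruits the abscission machinery. It had 126, 165 and 86.1 CPM in EV 2.8K, 76.7, 73.7 and 76.1 CPM in EV 10K, 36.2, 33.2 and 25.8 CPM in EV 100K and 57.7 CPM in the cell library. The pellets did not overlap, the EV 10K libraries agreed to a coefficient of variation of 2.07%, and the cell library lay between EV 10K and EV 100K. Its log2 fold change was -2.00 (± 0.27 SE, adjusted p = 2.48e-05 in edgeR) in EV 100K against EV 2.8K and -1.26 (± 0.27 SE, adjusted p = 0.00482 in edgeR) in EV 100K against EV 10K, and both passed in all 17 alternatives. EV 10K against EV 2.8K gave -0.75 (± 0.26 SE, adjusted p = 0.107 in edgeR), and -0.91 (adjusted p = 0.0434, range 0.0434 to 0.398) without replicate 3 of EV 2.8K.

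**Figure D2:**
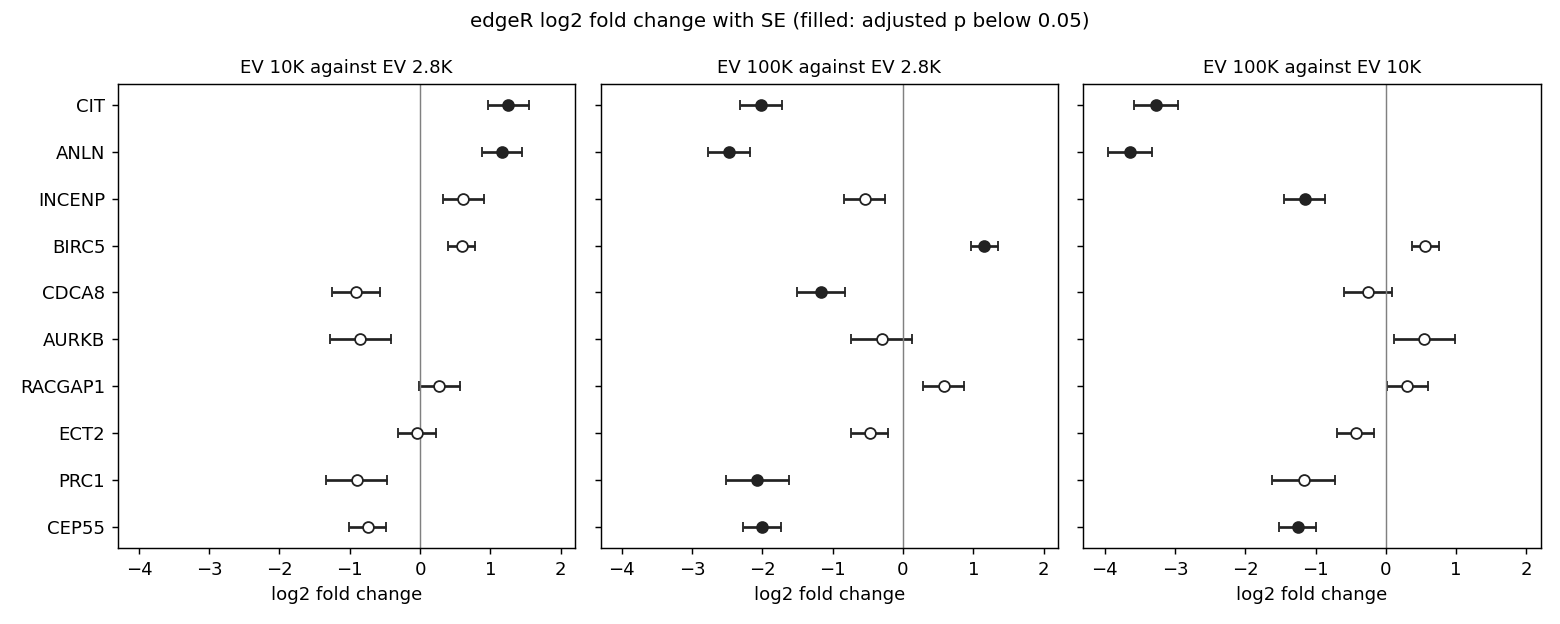
Log2 fold change from edgeR with its SE (horizontal axes) for the 10 mRNAs in the 3 comparisons of pellets, with filled points where the adjusted p is below 0.05. CIT and ANLN lie to the right of 0 in EV 10K against EV 2.8K and far to the left in both comparisons of EV 100K. BIRC5 and RACGAP1 lie to the right in all 3, with a filled point only for BIRC5 in EV 100K against EV 2.8K.

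The cell library has no replicate, so pellets were set against it as fold values without a test, and a member counts as past the fold where every library of a pellet was at least 2-fold on the same side. By this rule 2 of 10 members were higher and 0 lower in EV 2.8K (2.89% and 11.5% of 22370 genes), 3 higher and 0 lower in EV 10K (4.78% and 15%) and 2 higher and 0 lower in EV 100K (10.3% and 16.4%). CIT was 13.0-fold the cell level in EV 2.8K, 31.0-fold in EV 10K and 3.43-fold in EV 100K, as geometric means, which placed it at rank 38, 21 and 816 of 13535 protein-coding genes. In the same order of spins, ANLN was 6.01-fold, 13.3-fold and 1.13-fold the cell level, at rank 149, 57 and 4770. INCENP was 3.21-fold the cell level in EV 10K, and BIRC5 was 1.30-fold in EV 2.8K, 1.996-fold at 10K and 2.95-fold at 100K. CEP55 and PRC1 stood at 2.10-fold and 2.05-fold the cell level in EV 2.8K, and at 0.546-fold and 0.490-fold in EV 100K. By rising spin, CDCA8 was at 0.997-fold, 0.584-fold and 0.480-fold the cell level, and AURKB at 0.843-fold, 0.505-fold and 0.758-fold. RACGAP1 was at 0.901-fold, 1.15-fold and 1.45-fold, and ECT2 at 0.835-fold, 0.871-fold and 0.652-fold. The median log2 ratio of all genes was -0.24, -0.27 and -0.19 in the 3 pellets. CIT took 0.156% to 0.253% of all counts in EV 2.8K, 0.308% to 0.654% in EV 10K and 0.0445% to 0.0478% in EV 100K. In the cell library it took 4980 counts, 0.0173% of the total (95% Wilson interval 0.0169% to 0.0178%, counting error only).

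**Figure D3:**
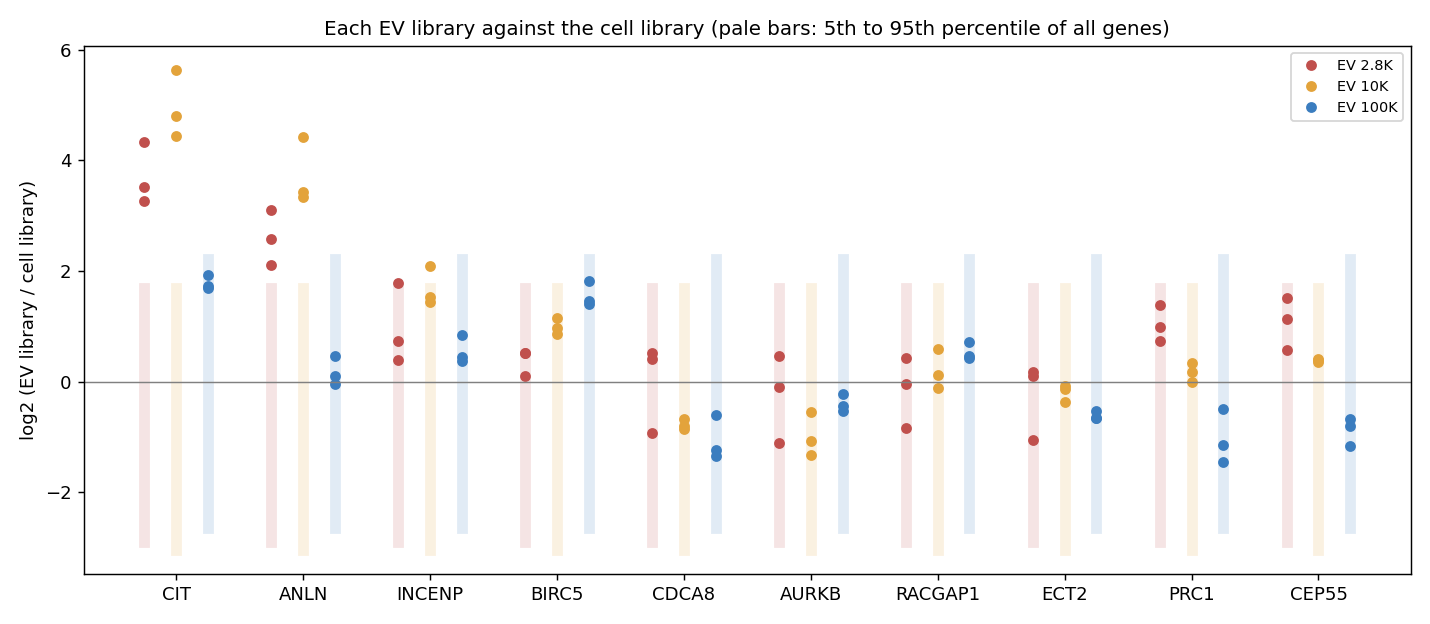
Log2 ratio of each EV library to the single cell library for the 10 mRNAs, by pellet, with pale bars from the 5th to the 95th percentile of all genes. CIT and ANLN are the members furthest above the cells at the 2.8K and 10K spins, and PRC1 and CEP55 are above it in EV 2.8K and below it in EV 100K.

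Ratios of mRNAs within a library, taken per kilobase, do not depend on the scaling between libraries. CIT per ANLN stayed in a narrow band over the EVs, with geometric means of 0.690 in EV 2.8K, 0.744 for EV 10K and 0.969 for EV 100K, against 0.318 in the cell library. Ratios among the passenger subunits spanned a wider range. BIRC5 per INCENP was 1.41, 1.31 and 4.27 from the lowest to the highest spin, against 2.11 in the cell library, and AURKB per INCENP was 0.158, 0.0573 and 0.189, against 0.366. CDCA8 per INCENP was 0.435, 0.155 and 0.279, against 0.853. CIT per BIRC5 was 1.29, 2.00 and 0.150 in the 3 pellets, against 0.129 in the cell library. Among the midzone genes, CEP55 per RACGAP1 was 2.41, 1.18 and 0.387, against 1.03, and ECT2 per RACGAP1 was 1.71, 1.401 and 0.829, against 1.85. PRC1 per CEP55 was 0.158, 0.139 and 0.144, against 0.162 in the cell library. Per kilobase, ANLN was the highest member in EV 2.8K and EV 10K, at 212 ± 72.8 and 479 ± 218 CPM per kilobase, and BIRC5 in EV 100K and the cell library, at 249.9 ± 39.8 and 83.9 (SD, n = 3 for each pellet). PRC1 was the lowest in every group, at 5.98 ± 1.37, 3.23 ± 0.38 and 1.44 ± 0.51 in the pellets and 2.86 CPM per kilobase in the cell library. Its exonic overlap with AC068831.7 leaves this rank, and its ratio to CEP55, uncertain.

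**Figure D4:**
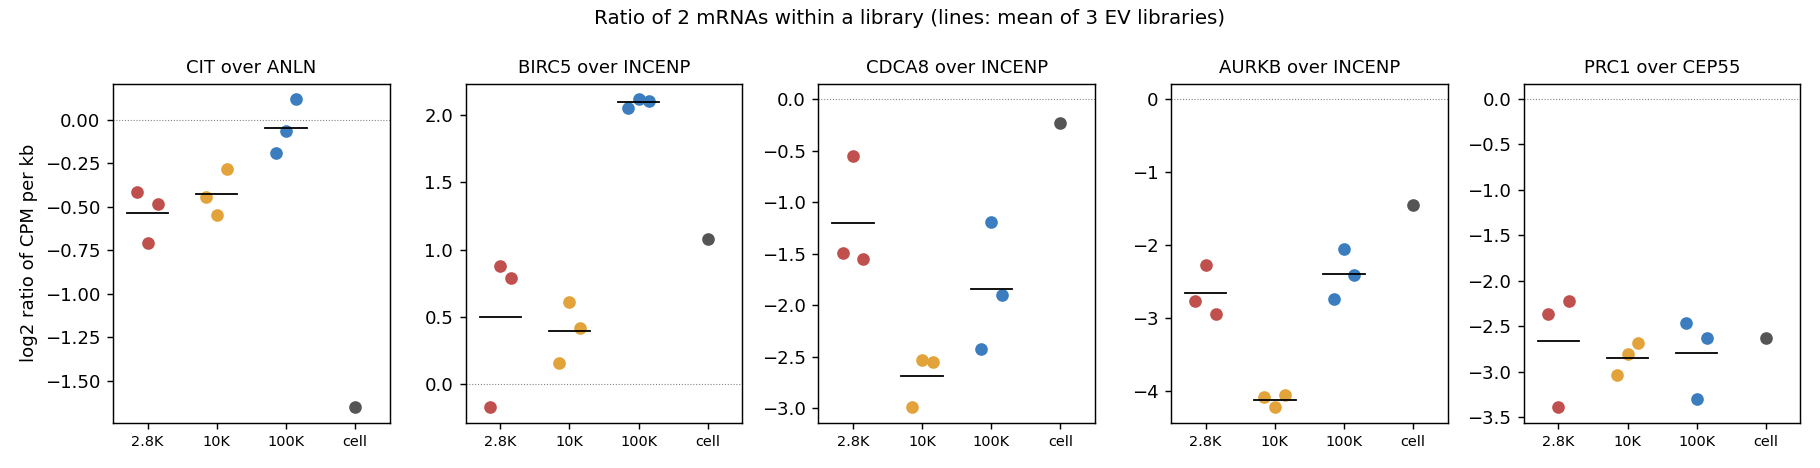
Log2 ratio of 2 mRNAs per kilobase within each library (vertical axes) for pairs of members, with points for the libraries of EV 2.8K, EV 10K, EV 100K and the cells and lines for the mean of 3 EV libraries. BIRC5 over INCENP is highest in EV 100K, and CIT over ANLN is lower in the cell library than in every EV library.

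Over the 9 EV libraries, the genes most like each member in log2 CPM were named from 8838 protein-coding genes by Pearson's r, as a description. These points share 3 pellets, so any genes that follow the spins in the same way correlate. CIT and ANLN were most like each other (r = 0.993) and like CENPE (r = 0.991 for CIT and 0.996 for ANLN), the centromere kinesin. CENPE had a mean of 226 CPM in EV 2.8K, 403 CPM in EV 10K, 56.2 CPM in EV 100K and 72.9 CPM in the cell library, the same order over the pellets as CIT and ANLN. BIRC5 was most like ZNF354B (0.996) and CEP192 (0.995), and the centrosome gene CEP192 averaged 163 CPM in EV 2.8K, 331 CPM in EV 10K and 600.5 CPM in EV 100K, against 151 CPM in the cell library. CEP55 was most like ANXA1 (0.993) and MCOLN1 (0.982), and PRC1 like FTSJ1 (0.982) and SLC2A1 (0.977). The pairs for the others were ELOF1 and C9orf78 for INCENP, PATL1 and ABHD11 for CDCA8, KDM3B and POLE for AURKB, ZNF25 and MRPL46 for RACGAP1, and UBA3 and AKAP2 for ECT2, with r between 0.942 and 0.978.

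Genes of the wider division machinery were more often lower than higher in EV 100K against EV 2.8K. Of 24 central spindle and furrow partners tested, 4 were higher and 11 lower for EV 100K against EV 2.8K, with a median log2 fold change of -0.75, against -0.06 over all genes, of which 12% were higher and 13.8% lower. The motor KIF20A, which carries the passenger complex to the midzone, averaged 19.3 ± 2.89 CPM in EV 100K, against 201 ± 48.3 CPM in EV 2.8K (SD, n = 3 each), a log2 fold change of -3.40 (± 0.27 SE, adjusted p = 8.84e-08 in edgeR). The myosin light chain MYL12B averaged 51.5 ± 2.99 CPM in EV 100K, against 359 ± 81.9 CPM in EV 2.8K (SD, n = 3 each), with -2.82 (± 0.22 SE, adjusted p = 7.53e-08 in edgeR). ARHGAP11A, a RhoA regulator, went the other way, with 4268 ± 985 CPM in EV 100K, against 503 ± 69.1 CPM in EV 2.8K (SD, n = 3 each) and 144 CPM in the cell library. Its log2 fold change was 3.06 (± 0.23 SE, adjusted p = 5.98e-08 in edgeR), but it has the near-identical copy ARHGAP11B, so its count is uncertain. The other 3 higher genes, named after their values were seen, were SHCBP1 (0.89), SEPT8 (0.83) and ROCK1 (0.81). In EV 10K against EV 2.8K, 1 was higher (ARHGAP11A, 2.17) and 2 were lower (KIF20A, -0.90, and PLK1, -1.37). These are 4.17% and 8.33% of the list, against 4.15% and 2.22% of all genes. In EV 100K against EV 10K, 1 was higher (ARHGAP11A, 0.90) and 7 were lower. These are 4.17% and 29.2%, against 3.7% and 7.23% of all genes. The higher share was thus near that of all genes in both comparisons.

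Of 25 abscission genes, which act after CEP55 at the midbody, 3 were higher and 7 lower for EV 100K against EV 2.8K, with a median of -0.48, against -0.06 over all genes. These are 12% and 28% of the list, against 12% and 13.8% of all genes, so the higher share was that of all genes. Genes of ESCRT-III, the membrane scission complex, were among the lower ones, with CHMP5 at -2.19 (± 0.27 SE, adjusted p = 7.75e-06 in edgeR), CHMP2A at -1.44 (± 0.22 SE, adjusted p = 8.79e-05 in edgeR) and CHMP4B at -0.94 (± 0.21 SE, adjusted p = 0.00228 in edgeR). CHMP3 (0.82), CHMP6 (0.89) and the microtubule-severing SPAST (0.97) were the higher ones, named after their values were seen. None of the 25 passed in EV 10K against EV 2.8K by edgeR, against 6.38% of all genes in either direction. At an unadjusted p below 0.05 in edgeR, 1 was higher and 4 lower there, and DESeq2 called 0 higher and 1 lower. In EV 100K against EV 10K, 4 were lower (PDCD6IP, CHMP2A, CHMP2B and CHMP5), with log2 fold changes of -0.93 to -1.45. These 4 are 16% of the list, against 7.23% of all genes, and 0 were higher, against 3.7%. Unadjusted p below 0.05 in edgeR gave 2 higher and 7 lower there, and DESeq2 called 0 higher and 4 lower. Of 14 genes that recruit the passenger complex or are its partners and substrates, 0 were higher and 5 lower for EV 100K against EV 2.8K, with a median of -0.76, beside the same 12% and 13.8% of all genes. No gene was higher at an unadjusted p below 0.05 or by DESeq2 either. The lower ones, of which MKI67 and KIF2C were named after their values were seen, were TPX2 (-2.48), PPP2R1A (-2.01), MKI67 (-1.70), BUB1 (-1.395), the kinase that marks centromeres for the complex, and KIF2C (-1.24), a microtubule depolymerase.

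The mRNA features of the members were compared with those of all protein-coding genes tested. Of the transcript models used, 1 per gene, that of CIT was the longest of the members, 8708 bases, longer than 94.3% of the transcripts, and AURKB was the shortest, 1254 bases, at the 9.45 percentile. ECT2 had the lowest GC content, 36.4% (2.698 percentile), and INCENP the highest, 59.6% (82.2 percentile). Across 12009 protein-coding genes, which are not independent replicates, the log2 fold change in EV 100K against EV 2.8K had r = 0.197 with log2 transcript length. Of 4 length classes of like size, the longest, from 4889 bases, had a median of 0.31 in that comparison and the shortest, up to 2003 bases, a median of -0.52. CIT, in the longest class, had -2.02 in the same comparison, and BIRC5, with 2711 bases, had 1.16.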

How the data were processed

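The authors deposited whole-number read counts per gene for 10 libraries of PC3 total RNA, prepared with a stranded SMARTer total RNA kit per the labels' protocols. Per the submitters' processing notes, bcl2fastq 2.19.1.403, cutadapt 2.7, STAR 2.6.1d, featureCounts 1.6.3 and GRCh38 were used. Not given in the sources used here were the strand setting and the treatment of shared reads, so counts of overlapping genes are uncertain. Groups and replicate numbers come from the sample titles.

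Symbols, positions and lengths come from GENCODE 29. Pellets were compared with edgeR 4.0.16 in R 4.3.3 on the 9 EV libraries: filterByExpr with a minimum count of 10, TMM factors, the robust quasi-likelihood F-test and Benjamini-Hochberg adjustment over 15525 genes, with a threshold of 0.05 and 6 residual degrees of freedom. The cell library has no replicate and was compared by fold alone over 22370 genes. Log2 CPM used a prior count of 2. Promoter sequences come from RefSeq GRCh38.p14. Alternatives were DESeq2 1.42.0, RLE scaling, no filter, other sets of libraries or entries, the replicate block and leaving out each EV library. The fit was tested on simulated counts.

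The members and gene lists were chosen with earlier results of these data known. Beside the 10 members, the text names up to 3 genes per list with the smallest adjusted p in EV 100K against EV 2.8K, and the 2 protein-coding genes most correlated with each member. Genes of counts of 5 or fewer that fall outside this rule are named too, and these and CENPF were chosen after their values were seen. Total counts of 5424964 to 28735081 set the precision. Intervals cover counting error only, since reads are not independent molecules.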

Additional observations from a re-analysis of the deposited data

Results flagged for a closer look

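For 2 members the pellets lay on opposite sides of the cell library in every library, and this difference in direction against the unreplicated cell library was itself not tested. PRC1 was below the cell level in the 3 EV 100K libraries and above it in the 3 EV 2.8K libraries, and its log2 fold change between these pellets was -2.07 in edgeR. CEP55 was below the cell level in every EV 100K library and above it in every library of EV 2.8K and EV 10K, and its log2 fold changes in EV 100K were -2.00 against EV 2.8K and -1.26 against EV 10K. The exonic overlap of PRC1 with AC068831.7 bears on its level and not on that of CEP55, for which no exonic overlap with another gene was found. No group had the 4 or more libraries needed to look for a single outlying library.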

How the results depend on the processing

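No member reversed a call under any alternative. Over the log2 fold changes of the members between pellets, 233 of the values without leaving out a library stayed on their side of the threshold, 6 passed newly and 1 was lost; with 1 library left out, 251 stayed, 7 passed newly and 12 were lost.

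Deviations from the pellet means correlated at -0.00819 to 0.0457 in 9 pairs of same-numbered libraries, and at -0.0354 to 0.0278 in differently numbered ones. Correlations this low over all genes tested cannot decide whether the set numbers pair the libraries. For CIT, ANLN and INCENP, replicate 1 was the highest library of each pellet, and whether these members vary by set was not tested. With the replicate block, 4 members were higher in EV 10K than in EV 2.8K (INCENP at 0.69, adjusted p = 0.0282, and BIRC5 at 0.60, adjusted p = 0.0219, beside CIT and ANLN) and 1 was higher in EV 100K than in EV 10K (BIRC5, 0.56, adjusted p = 0.0205).

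BIRC5 was likewise 1 higher member in EV 100K against EV 10K in the fit on the 6 libraries compared (adjusted p = 0.0334) and by DESeq2 (adjusted p = 0.00860). Over all genes, EV 10K against EV 2.8K had 531 lower genes in the fit on all 10 libraries, 362 higher and 199 lower in the fit on 6 libraries, and 997 higher and 638 lower by DESeq2. EV 100K against EV 10K had 1199 higher genes in the fit on 6 libraries and 936 by DESeq2.

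With 1 EV library left out, members higher ranged over 0 to 4 and lower over 0 to 2 in EV 10K against EV 2.8K, higher over 1 to 2 and lower over 4 to 5 in EV 100K against EV 2.8K, and higher over 0 to 1 and lower over 3 to 4 in EV 100K against EV 10K. The joint test called 5 to 7. Against the cell library, members lower ranged over 0 to 1 in EV 10K and EV 100K and members higher over 2 to 3 in EV 2.8K. All genes ranged over 383 to 812 higher and 167 to 368 lower in EV 10K against EV 2.8K, 1305 to 1994 higher and 1502 to 2153 lower in EV 100K against EV 2.8K, and 266 to 1055 higher and 703 to 1494 lower in EV 100K against EV 10K. Fits with fewer libraries have fewer degrees of freedom. The highest counts in EV 100K against EV 10K, 1055 higher and 1494 lower, came without replicate 1 of EV 2.8K. The cause of these changes was not tested.

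RLE scaling moved the median log2 ratio of all genes to the cell library to -0.14 (EV 2.8K), -0.20 (EV 10K) and -0.05 (EV 100K), against -0.24, -0.27 and -0.19 with TMM, and the ratios of the members with it (CIT in EV 100K to 1.93). With GENCODE entries alone, 32.3% and 38.1% of genes past the fold were higher in EV 2.8K and EV 10K, against 20.1% and 24.1%. Depth limits PRC1 most, with 31 to 79 counts in EV 100K.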

Other observations

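Of 32 other mRNAs of the G2 and M phases, 0 were higher and 17 lower for EV 100K against EV 2.8K by edgeR, with a median log2 fold change of -0.98, where 12% of all genes were higher and 13.8% lower and their median was -0.06. For EV 100K against EV 10K, 0 were higher and 9 lower, with 3.7% and 7.23% of all genes. At an unadjusted p below 0.05, 1 was higher in each of these comparisons, and DESeq2 called 1 higher against EV 2.8K and 0 against EV 10K. NUSAP1, a spindle microtubule protein, had -3.53 (SE 0.43, edgeR adjusted p = 7.96e-06), CDC20, the activator of the anaphase-promoting complex, -2.62 (SE 0.31, edgeR adjusted p = 5.34e-06), and UBE2S, its ubiquitin-conjugating enzyme, -2.51 (SE 0.26, edgeR adjusted p = 1.54e-06). In EV 10K against EV 2.8K, CDC20 (-1.15) and HJURP (-0.82), a centromere histone chaperone, were the 2 lower ones. They are 6.25% of the list, against 2.22% of all genes, and 0 were higher by edgeR, against 4.15%. At an unadjusted p below 0.05 in edgeR, 4 were higher and 9 lower there, and DESeq2 called 2 higher and 5 lower. Against the cell library, 15 of the 32 were at least 2-fold lower in every EV 100K library, as were 16.4% of 22370 genes, and 1 was higher, as were 10.3%. CENPF, a kinetochore protein gene, was at 3.67-fold (EV 2.8K), 6.30-fold (EV 10K) and 4.35-fold (EV 100K) the cell level, and CENPE at 3.01-fold and 5.26-fold in EV 2.8K and EV 10K. These 2 genes were the only ones of the 32 past the 2-fold rule on the higher side. In EV 2.8K, 2 of the 32 were higher and 2 lower, beside 2.89% and 11.5% of all genes. The counts in EV 10K were 2 higher and 0 lower, beside 4.78% and 15%.

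Of 31 entries of the long noncoding RNA catalogue named after a member, 1 had any count: lnc-CIT-1, with 20 counts in replicate 3 of EV 2.8K and 0 in the other 9 libraries. Its position was not used here, and the RACGAP1 pseudogene RACGAP1P had 2 counts over all libraries.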
